A study of Mus musculus with 9 samples.

Results

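The genes described here are those of the axonemal dyneins (Dnah, Dnaic, Dnali1 and Dnal1), their assembly factors (Dnaaf), the radial spokes (Rsph), the nexin-dynein regulatory complex (Drc), the cilia- and flagella-associated proteins (Cfap) and the tektins (Tekt). They were chosen by name alone, as the protein-coding rows whose symbol starts with 1 of these family names followed by a digit, plus Dnali1 and Dnal1, and they number 64 of the 38674 genes in the table. There are 26 Cfap, 15 Dnah, 8 Rsph, 5 Tekt, 3 Dnaaf, 3 Drc and 2 Dnaic genes, and Dnali1 and Dnal1. RNA was taken from the testes of 9 male C57BL/6 mice, 3 wild-type (Pfn3+/+, WT), 3 heterozygous (Pfn3+/-, Het) and 3 homozygous mutant (Pfn3-/-, KO), with the tunica albuginea removed. QuantSeq libraries were made, a method that reads the 3′ ends of polyadenylated transcripts. Pfn3 encodes a testis-specific profilin, a regulator of actin polymerization. The mutants came from CRISPR/Cas9 deletions in the single coding exon, and 3 deletion lines were established. Sexually mature males a few months old were used throughout the study. Which line was sequenced, the exact age of each sequenced animal and whether animals shared a litter are not given in the sources used here, so p-values measure only the spread between these animals.

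The axoneme is the microtubule core of motile cilia and of the sperm tail, with a ring of doublet microtubules around a central pair. Outer and inner dynein arms slide the doublets past each other, the radial spokes pass signals from the central pair to the arms, and the nexin-dynein regulatory complex links neighbouring doublets. Tektins and several Cfap proteins line the inside of the doublets, and the Dnaaf proteins help to fold and assemble the dynein arms in the cytoplasm before they are brought to the axoneme. In the testis, sperm tails are built during spermiogenesis, and many axonemal genes are already transcribed in meiotic spermatocytes.

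Values are normalized counts, which here means reads per gene after scaling of each animal by its own size factor. Each animal had between 3375546 and 4287335 reads on genes, and the detection limit was set at 3 reads, equal to between 2.58 and 3.71 normalized counts depending on the animal. It accounts for counting error alone. Pfn3 itself had 592, 383 and 373 normalized counts in WT, 136, 339 and 326 in Het and 74.7, 215 and 279 in KO animals 1, 2 and 3. The highest KO value was under the lowest WT value, but transcripts remained in KO, and reads from the 3′ end need not cover a deletion, so Pfn3 does not check each label by itself. Over all genes WT1 stood apart, being the lowest of the 9 animals in 28.6% of genes and the highest in 25.5%. Markers of meiotic and postmeiotic germ cells were abundant in all 9 animals, whereas 4 of the 7 epididymis markers (Adam28, Cst11, Lcn5 and Lcn8) and 4 of the 9 markers of multiciliated epithelium (Cdhr3, Mcidas, Scgb1a1 and Sntn) were at 0 in all of them. The other epididymis markers were detected. Rnase10 had 0 in WT1 and 23.3 to 35.0 normalized counts elsewhere, Spink8 had 0 to 19.3 and Defb20 had 0 to 5.36. The 9 multiciliated markers summed to 1227 to 1461 normalized counts in WT, 959.9 to 1376 in Het and 659 to 1127 in KO, with Fam183b the highest of them.

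The members were well expressed in the testis. The median member had a mean of 222 normalized counts over the 9 animals, beside 39.3 over the 17329 protein-coding genes with signal, and 81.25% of members reached a mean of 100, beside 31.5% of those genes. Because each transcript is read at its 3′ end, normalized counts are not divided by transcript length, and the order of genes below is an order on this scale, which also depends on how the 3′ ends were assembled. Of the 64 members, 61 were counted at loci of the authors' merged transcript assembly.

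Rsph1, a radial spoke head protein, was the highest member at a mean of 6301 normalized counts. It was followed by Cfap206 at 3219.9, the assembly factor Dnaaf1 at 1952, Cfap36 at 1609.7, the dynein heavy chain Dnah8 at 1486, the tektin Tekt1 at 1377 and the inner arm light intermediate chain Dnali1 at 1099. These 7 were the members above 1000 normalized counts. The third of them, Dnaaf1, ranged from 1074 to 2991 over the animals and Cfap36 from 758 to 2071, so the order of these neighbours did not hold in every animal.

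Some members known from motile cilia of other tissues were low or near the detection limit. They are named here for their low values and do not stand for all such members. Rsph4a, a radial spoke head protein of airway cilia, was at 0 in 8 animals and at 2.83 normalized counts in Het1, whereas its relative Rsph6a, known from sperm, had 207 to 549 in 7 animals but 6.19 in WT1 and 21.4 in KO3. Dnah11, an outer arm heavy chain of airway cilia, had 0 to 7.15 normalized counts, and Dnah5, its counterpart in the same arms, had 0 to 13.6, the latter being 11 reads in WT1. Other outer arm genes were higher. Dnah9, a further heavy chain, was at 0 in WT1 and at 20.3 to 36.1 elsewhere, and the intermediate chains Dnaic1 and Dnaic2 had means of 217 and 132. Cfap73 was at 0 in 8 animals and at 0.931 in Het2, and Cfap99 was at 0 in 7 animals, with 3.86 in WT2 and 7.72 in WT3. A count of 0 allows up to 3 reads, that is 2.58 to 3.71 normalized counts. Of the outer arm heavy chains known from sperm, Dnah8 had 810.3 to 2578 normalized counts, while Dnah17 had 2.83 to 131, a range that overlapped with that of Dnah5.

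**Figure D1:**
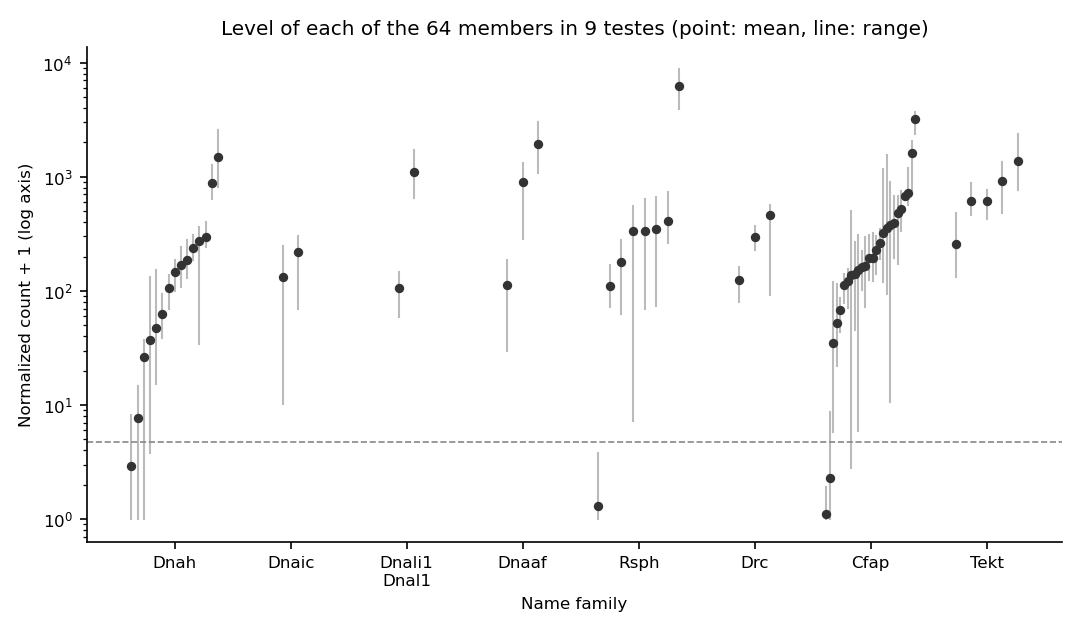
Mean (point) and range over the 9 animals (line) of each member, as normalized count + 1 on a log axis, by name family. The dashed line marks the highest detection limit of 3.71 normalized counts plus 1. Rsph1 is the highest point at 6301, and Rsph4a, Cfap73, Cfap99 and Dnah11 have means under the line.

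RefSeq promoters, 250 bases before to 50 bases after the transcript start in GRCm38.p6, were found for 53 of the 64 members, as 60 windows. RFX transcription factors, which are known for switching on ciliary genes, bind the X-box, an inverted repeat of short words. Promoters were searched on both strands for a first RFX word, GTTGCC, its longer form GTTGCCNNG, the short cAMP response element (CRE) TGACGT and the full CRE TGACGTCA, which is bound by CREM in spermatids. The second RFX word GTTGCTA, and GTTGC followed by GCAAC after 1 to 4 bases, were added after the sequences had been read. The longer forms contain the shorter ones, and the repeat can contain either RFX word.

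GTTGCC was present in 35% of member promoters and 12.5% of all 32851 promoters, and GTTGCCNNG in 21.7% and 5.0%. GTTGCTA was present in 40% of member promoters and 3.66% of all promoters. At least 1 of the RFX words, GTTGCC or GTTGCTA, was in 63.3% of member promoters and 15.4% of all promoters, and in 35 of 53 members. The inverted repeat was in 16.7% of member promoters and 0.444% of all promoters. The CRE words were about as frequent in member promoters as in all, TGACGT at 6.67% beside 7.51% and TGACGTCA at 1.67% beside 1.79%. A match is a description of letters and not of binding.

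By family, an RFX word was found in 5 of 5 Tekt genes, 14 of 20 Cfap, 8 of 14 Dnah, 2 of 2 Dnaaf, 2 of 3 Drc, 2 of 5 Rsph, 1 of 2 Dnaic and 1 of the pair Dnali1 and Dnal1. In member promoters the words lay at a median of −27 from the transcript start. The inverted repeat was held by Cfap44, Dnah6, Dnah7a, Dnah7b, Dnah7c, Dnaic2, Rsph3b, Tekt2 and Tekt4. Dnah7a, Dnah7b and Dnah7c are paralogues whose promoters share sequence around the repeat, so they are not independent cases.

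The whole promoters of the tektin Tekt2 and of Cfap44 are shown because both genes had lower values in KO than in WT (described later) and because both hold the repeat. Lower values were not shared by all members with the repeat. Tekt4 was also lower, but Dnah6, Dnah7a, Dnah7b, Dnah7c, Dnaic2 and Rsph3b had log2 fold changes of 0.15 to 0.67. The promoters are written 5′ to 3′ on the strand of the gene, and capitals mark the inverted repeat alone, so that single RFX words stay in lower case.
Tekt2 (chr4:126325639-126325938, minus strand): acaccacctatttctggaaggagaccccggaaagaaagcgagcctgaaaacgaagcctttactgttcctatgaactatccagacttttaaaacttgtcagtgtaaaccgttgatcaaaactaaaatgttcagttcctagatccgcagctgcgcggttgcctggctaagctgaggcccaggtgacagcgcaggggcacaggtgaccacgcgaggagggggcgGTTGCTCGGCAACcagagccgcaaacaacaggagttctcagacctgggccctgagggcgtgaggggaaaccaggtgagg
Cfap44 (chr16:44394549-44394848, plus strand): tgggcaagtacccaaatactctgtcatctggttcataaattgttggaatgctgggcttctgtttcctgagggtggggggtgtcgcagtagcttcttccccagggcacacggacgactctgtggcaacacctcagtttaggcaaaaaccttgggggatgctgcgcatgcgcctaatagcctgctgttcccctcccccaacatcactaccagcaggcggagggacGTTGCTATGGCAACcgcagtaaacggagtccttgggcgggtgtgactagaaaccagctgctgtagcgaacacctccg

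In the other members with the repeat 3 bases lie between its arms, and 40 bases around each are shown with the repeat in capitals.
Tekt4 (chr17:25471541-25471580, plus strand): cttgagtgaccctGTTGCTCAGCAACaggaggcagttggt
Dnah6 (chr6:73221641-73221680, minus strand): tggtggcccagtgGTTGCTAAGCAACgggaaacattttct
Dnaic2 (chr11:114727373-114727412, plus strand): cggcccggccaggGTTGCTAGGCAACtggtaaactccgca
Rsph3b (chr17:6948321-6948360, minus strand): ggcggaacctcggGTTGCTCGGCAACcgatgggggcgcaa
Dnah7b (chr1:46066816-46066855, plus strand): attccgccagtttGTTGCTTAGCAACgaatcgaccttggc
Dnah7a (chr1:53706815-53706854, minus strand): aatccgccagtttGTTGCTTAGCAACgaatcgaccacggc
Dnah7c (chr1:46425436-46425475, plus strand): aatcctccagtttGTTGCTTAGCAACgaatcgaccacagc

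Of the 12 members with an unadjusted p under 0.05 in KO against WT (described below), 9 were in the promoter table. An RFX word was held by 8 of these 9, beside 35 of all 53 members in the table. GTTGCC alone was in 6 of the 9, beside 19 of the 53. Of the 8 with a word, those without the repeat are shown as 40 bases with 1 word in capitals. In Rsph14 this is GTTGCTA read on the opposite strand (TAGCAAC). Rsph1, Dnaaf1 and Cfap157 were not in the table.
Tekt1 (chr11:72361871-72361910, minus strand): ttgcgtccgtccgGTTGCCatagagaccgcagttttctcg
Cfap57 (chr4:118620762-118620801, minus strand): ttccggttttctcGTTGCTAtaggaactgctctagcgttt
Cfap74 (chr4:155409190-155409229, plus strand): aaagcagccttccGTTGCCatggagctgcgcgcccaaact
Rsph14 (chr10:75032568-75032607, minus strand): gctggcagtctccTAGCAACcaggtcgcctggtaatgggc

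**Figure D2:**
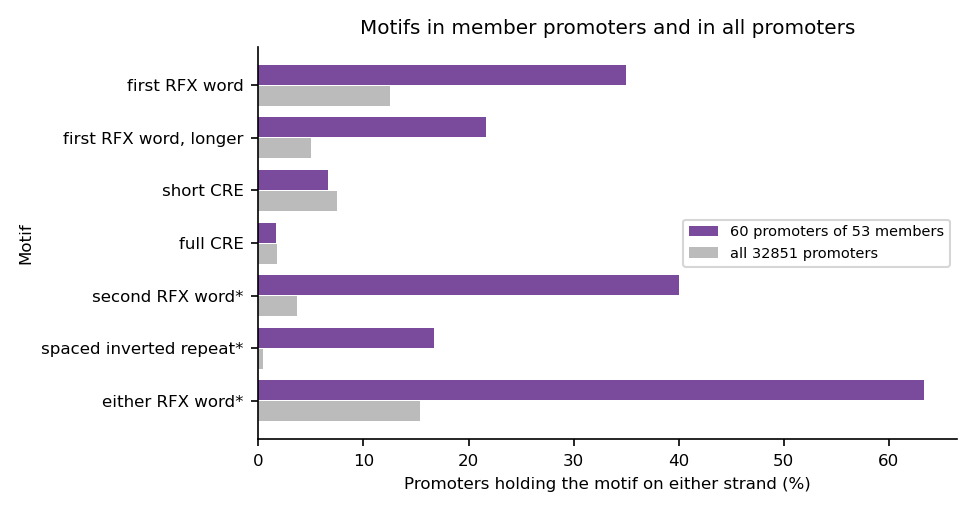
Percent of promoters holding each word on either strand, for the 60 promoters of 53 members and for all 32851 promoters, members included. Asterisks mark words added after the sequences had been read. The second RFX word is at 40% of member promoters and 3.66% of all, and the CRE words are at similar shares in both.

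The comparison of KO with WT asked whether loss of Pfn3 changed the RNA of the axonemal genes. No member was called, and the smallest unadjusted p-values belonged to the spoke gene Rsph1, the inner arm gene Dnali1, Cfap74, Dnaaf1, Cfap44 and Tekt2, all with lower values in KO. Of the members, 58 passed the filter on low values (3 or more of the 6 animals at 10 normalized counts or above), and 0 had an adjusted p under 0.05 with a log2 fold change over 1.5 by limma, beside 0.0352% of the 14223 genes tested. Without the fold cutoff the count by limma was also 0. With both cutoffs, the recovered reads gave 0 by edgeR (quasi-likelihood) and 0 by DESeq2 (Wald), beside 0.0352% and 0.703% of all genes. The smallest adjusted p of a member was 0.557 by limma, 0.602 by edgeR and 0.128 by DESeq2. At an unadjusted p under 0.05, 11 members (19%) were lower in KO, beside 5.03% of all genes tested, and 1 (1.72%) was higher, beside 3.04%. The adjusted p of these 12 members was 0.557 to 0.610.

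There was no overlap between KO and WT in 16 members that were lower in KO (27.6%, beside 10.5% of all genes tested) and in 4 that were higher (6.9%, beside 9.41%). Over the 58 members the median log2 fold change was −0.21, beside 0.02 over all genes tested, and 35 of 58 (60.3%) were below 0, beside 48.6%. The members' median depended on the scaling, and that of all genes moved with it. When animals were scaled by total reads rather than by size factors, the members' median was −0.01 and that of all genes 0.22. Scaling moves all genes of an animal together, so the gap between members and all genes could hardly change and was not checked by this. At an unadjusted p under 0.05, 4 members were then higher and 6 lower, and the share of all genes was not taken under this scaling.

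The radial spoke genes were led by Rsph1. It had 8716, 7910.4 and 7942 normalized counts in WT, 3893, 7153 and 4639 in Het and 5998, 5294 and 5164 in KO. The KO animals were all under the WT range, and Het2 lay near WT. The WT mean was 8189.7 ± 456 and the KO mean 5485 ± 449 (SD, n = 3 each), a log2 fold change of −0.58 (SE 0.13, limma unadjusted p = 0.00403). Rsph1 lies on the minus strand of chromosome 17 from 31255019 to 31277383 (GRCm38), with 9 exons in its longest annotated transcript.

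Rsph14 had 167, 138 and 100.4 normalized counts in WT and 96.2, 82.2 and 71.5 in KO (log2 fold change −0.67, SE 0.26). Rsph9, another spoke head protein, had a log2 fold change of −0.62 (SE 0.33, limma unadjusted p = 0.102), with overlapping animals. The remaining spoke genes were not lower as a group, with 3 of the 7 Rsph genes tested above 0 and a family median of −0.13. The pair Rsph3a and Rsph3b share 54.2% and 73.5% of the 50-base stretches in their 3′ ends with other transcripts, each other's among them, so their values are uncertain. Rsph3a went from 242 ± 148 in WT to 322 ± 101 in KO (SD, n = 3 each).

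Among the dyneins the inner arm light intermediate chain Dnali1 was lower and most heavy chains were not. Dnali1 had 1712, 1313 and 1317 normalized counts in WT, 655, 1301 and 1028 in Het and 916, 738 and 907 in KO. All KO animals lay below all WT animals, while Het2 lay close to the lower WT animals. The log2 fold change was −0.76 (SE 0.19, limma unadjusted p = 0.00674). The gene lies on the minus strand of chromosome 4 from 125055338 to 125065703, with 6 exons, and overlaps Gnl2 on the opposite strand, and whether the counting used strand is not given in the sources used here.

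Of the 13 Dnah genes tested, 8 had a log2 fold change above 0 and the family median was 0.15. Dnah7b, an inner arm heavy chain, had 244, 273 and 264 normalized counts in WT and 328, 364 and 361 in KO. Its groups did not overlap, and its log2 fold change was 0.43 (SE 0.17, limma unadjusted p = 0.0412). Its Het animals had 33.1, 264 and 327, so Het1 lay far below every other animal. The paralogues Dnah7a and Dnah7c had fold changes in the same direction, 0.26 (SE 0.17) and 0.40 (SE 0.19) on the log2 scale, neither with an unadjusted p under 0.05, and their KO animals were also all above their WT animals. The 3 paralogues share 14.99% (Dnah7b), 25.8% (Dnah7a) and 53.5% (Dnah7c) of the 50-base stretches in their 3′ ends, so part of their reads cannot be assigned to 1 of them.

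Dnah8 had 1207, 810.3 and 1849 normalized counts in WT and 912, 2578 and 1627 in KO, and its animals overlapped widely (log2 fold change 0.36, SE 0.46). Dnah14 had 789 ± 207 in WT and 1052 ± 247 in KO (SD, n = 3 each), also with overlap. The outer arm intermediate chains Dnaic1 and Dnaic2 had log2 fold changes of 0.19 (SE 0.60) and 0.53 (SE 0.87), and the outer arm light chain Dnal1 0.42 (SE 0.32). The WT and KO animals overlapped in all of these.

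The assembly factors split. Dnaaf1, which is needed for preassembly of dynein arms, had 2991, 2582 and 2141 normalized counts in WT, 1074, 2233 and 1629 in Het and 1721, 1523 and 1678 in KO. No KO animal reached the lowest WT animal, and the log2 fold change was −0.64 (SE 0.18, limma unadjusted p = 0.0106). Dnaaf1 lies on the plus strand of chromosome 8 from 119575235 to 119598454 and overlaps Taf1c on the opposite strand. Dnaaf2 had 952 ± 321 in WT and 933 ± 41.3 in KO (SD, n = 3 each), a log2 fold change of 0.04 (SE 0.30). Dnaaf5 had 0.67 (SE 0.50) on the log2 scale.

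The nexin-dynein regulatory complex had no member with an unadjusted p under 0.05. Drc1 had a log2 fold change of −0.40 (SE 0.20, limma unadjusted p = 0.0935). Drc7 had −0.46 (SE 0.21, limma unadjusted p = 0.0716), with all KO animals (125, 96.7 and 96.5) below all WT animals (162, 128 and 148). Drc3 had 91.6 normalized counts in WT1 and 460.1 to 567 in the other 8 animals, which made its log2 fold change 0.74 (SE 0.69).

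Of the 23 Cfap genes tested, 17 were below 0 and the family median was −0.38. At an unadjusted p under 0.05, 4 were lower and 0 higher, beside the shares of all genes given above. Cfap74, a protein of the central pair, had 274, 210.3 and 322 normalized counts in WT, 122, 259.8 and 132 in Het and 155, 149 and 122 in KO. The WT and KO animals did not overlap, and Het2 alone of the Het animals was in the WT range (log2 fold change −0.90, SE 0.24, limma unadjusted p = 0.00813). Cfap74 lies on the plus strand of chromosome 4 from 155409190 to 155466823, with 38 exons.

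Cfap44, which tethers an inner dynein arm and is needed for sperm tail formation, had 202, 202 and 294 normalized counts in WT, 71.8, 200.2 and 125 in Het and 115, 125 and 148 in KO. Here too the KO animals lay below the WT animals and Het2 lay just under them (log2 fold change −0.83, SE 0.24, limma unadjusted p = 0.0126). Cfap44 spans bases 44394796 to 44482428 of the plus strand of chromosome 16, with 35 exons. Its partner Cfap43 had 675 ± 47.0 in WT and 667 ± 52.8 in KO (SD, n = 3 each), a difference smaller than the spread.

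Cfap157, known from sperm tail formation, had 302, 264 and 280.0 normalized counts in WT and 167, 151 and 242 in KO (log2 fold change −0.62, SE 0.24). Cfap57 had 678, 447 and 474 in WT and 375, 369 and 279.7 in KO (log2 fold change −0.63, SE 0.24). Neither gene had overlapping groups, and their unadjusted p-values by limma were 0.0378 and 0.0388. Of the highest Cfap genes, Cfap206 went from 3350.4 ± 328 to 3151 ± 678, Cfap36 from 1323 ± 489.8 to 1709.9 ± 346 and Cfap45, a microtubule inner protein, from 897 ± 262 to 596 ± 22.6 (SD, n = 3 each). Of these 3, Cfap45 alone had groups that did not overlap (limma unadjusted p = 0.0552).

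All 5 tektins had lower fitted values in KO, with a median log2 fold change of −0.55, and 3 of them had an unadjusted p under 0.05. Tekt2 had 478, 364 and 266 normalized counts in WT, 174, 263 and 228 in Het and 199, 132 and 207 in KO. Both the Het and the KO animals lay below the lowest WT animal, Het2 only just. Its log2 fold change was −1.02 (SE 0.30, limma unadjusted p = 0.0142), and the gene, on the minus strand of chromosome 4 from 126322121 to 126325688, has 11 exons. Its promoter holds the inverted repeat shown above.

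Tekt1 had 2365, 1898 and 1387 normalized counts in WT, 761, 1396 and 1077 in Het and 1374, 871 and 1267 in KO. The highest KO animal lay close to the lowest WT animal (log2 fold change −0.68, SE 0.28, limma unadjusted p = 0.0477). Tekt4 had 1352, 1124 and 966 in WT, 484, 923 and 1037 in Het and 873, 620.1 and 869.6 in KO (log2 fold change −0.55, SE 0.22, limma unadjusted p = 0.0480). Tekt3 and Tekt5 had log2 fold changes of −0.31 (SE 0.22) and −0.38 (SE 0.23), with overlapping animals.

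**Figure D3:**
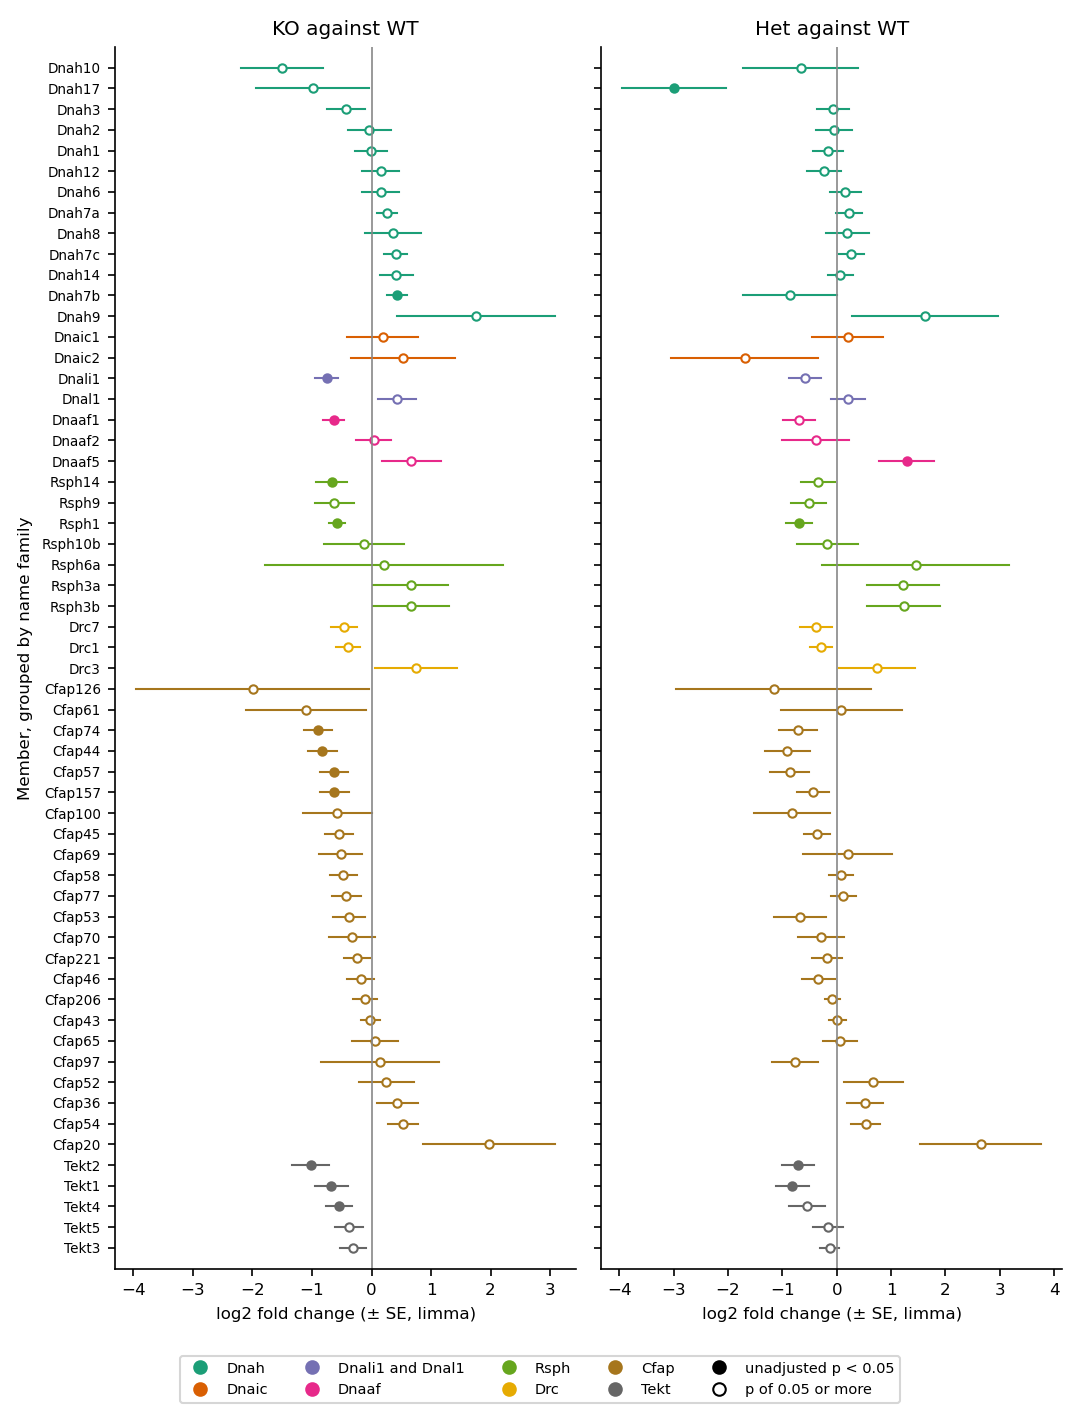
Log2 fold change ± SE (limma) of each of the 58 members tested in KO against WT (left), and of the same genes in Het against WT (right), grouped by name family. Filled points have an unadjusted p under 0.05; the 5 tektins at the bottom lie left of 0 in both panels, and no member passed the adjusted cutoff. Both panels share the WT animals.

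When single animals were left out, Rsph1, Dnali1, Cfap74, Dnaaf1, Cfap44 and Tekt2 had an unadjusted p under 0.05 in each of the 6 fits, and these were also the members of smallest p with all animals. Cfap157, Cfap57, Rsph14, Tekt1, Tekt4 and Dnah7b did so in 1 of these 6 fits each. Without KO1 or without KO2, 6 members were left at an unadjusted p under 0.05, and without WT1 there were 11.

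Spermatid markers mostly had lower fitted values in KO and spermatocyte markers higher ones, and 0 of them were called. The smallest adjusted p by limma was 0.529 for elongating spermatid, 0.610 for round spermatid and 0.583 for spermatocyte markers. Of the 4 spermatogonia markers tested, 2 had higher and 2 lower fitted values. All 7 elongating spermatid markers (protamines, transition proteins and tail components) had lower fitted values in KO, 4 of them at an unadjusted p under 0.05, with a median log2 fold change of −0.80. KO lay below WT without overlap in 5 of the 7, beside 10.5% of all genes tested. Akap4 split within genotypes, with 45.8, 2573 and 2174 normalized counts in WT and 1770, 105 and 137 in KO. The summed level of the 7 markers was 246472 to 260728 normalized counts in WT, 185236 to 228033 in Het and 129243 to 207056 in KO. Of 8 round spermatid markers 7 had lower fitted values, 2 of them at an unadjusted p under 0.05, with sums of 8249 to 11023 in WT, 6662 to 8356 in Het and 4119 to 6876 in KO. All 8 spermatocyte markers tested had higher fitted values, 2 of them at an unadjusted p under 0.05, and the 9 listed had sums of 5656 to 7337 in WT, 5846 to 9416 in Het and 8476 to 9541 in KO. In bulk tissue fewer cells of a type and less RNA per cell cannot be told apart, and the part of these markers in the members' values was not tested.

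**Figure D4:**
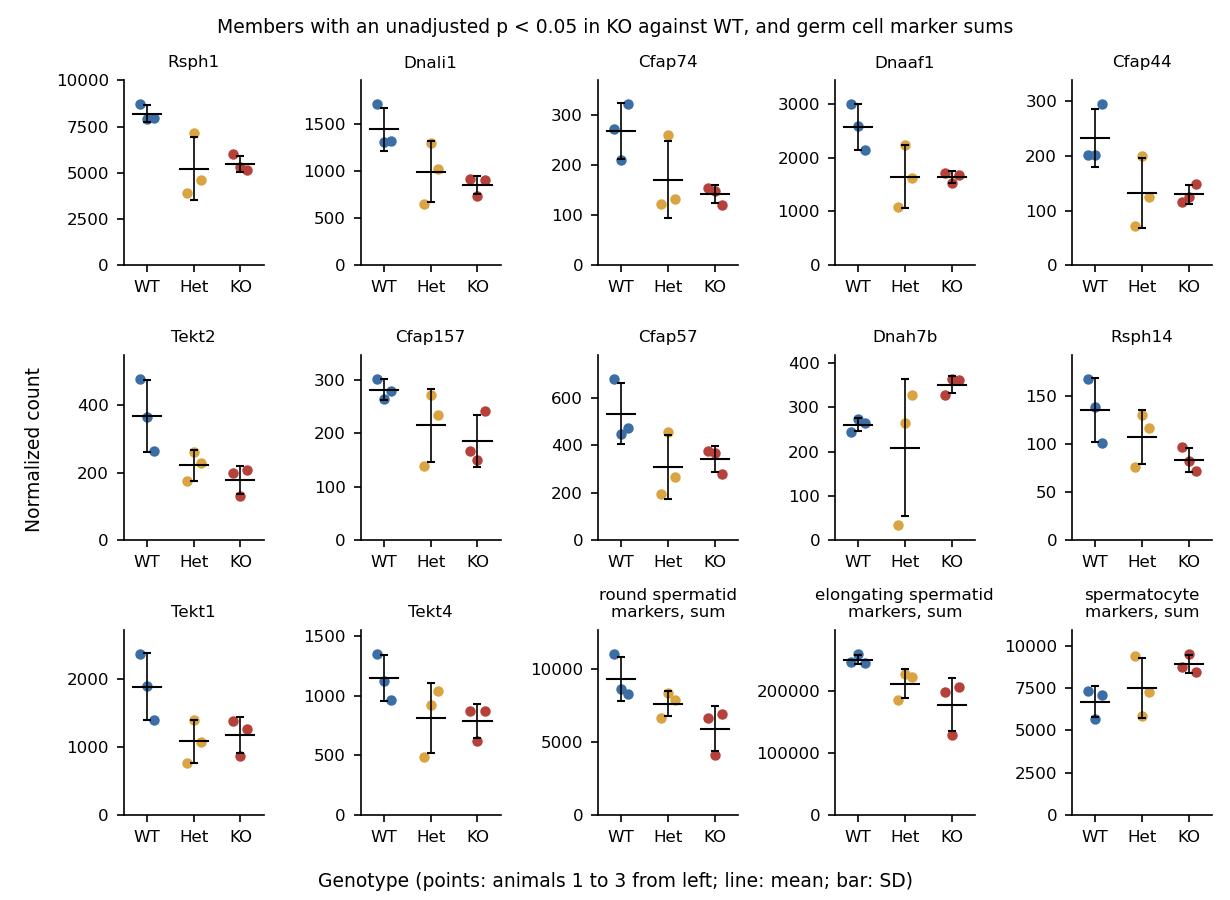
Normalized counts of the 12 members with an unadjusted p under 0.05 in KO against WT, and summed normalized counts of 3 germ cell marker lists, by genotype (points are animals 1 to 3 from left, lines means, bars SD, n = 3). Axes start at 0. In the 11 lower members the KO points are all under the WT points, and Het1 is the lowest Het animal.

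Heterozygous animals did not form a uniform group. In Het against WT 0 of 58 members were called by limma, beside 0% of the 14216 genes tested, and edgeR and DESeq2 called 0 members as well, beside 0% and 0.218% of all genes. At an unadjusted p under 0.05, 4 members (6.9%) were lower, beside 1.89% of all genes, and 1 (1.72%) was higher, beside 1.46%. Groups did not overlap in 4 lower members (6.9%, beside 6.49%) and 3 higher ones (5.17%, beside 6.76%). The median log2 fold change was −0.17, beside 0.01 over all genes tested. KO and Het were compared with the same WT animals, so the 2 comparisons are not independent.

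The 4 lower members were Rsph1 (log2 fold change −0.69, SE 0.24), Tekt1 (−0.81, SE 0.30), Tekt2 (−0.71, SE 0.29) and the outer arm heavy chain Dnah17 (−2.99, SE 0.95). Dnah17 had 131, 61.7 and 14.5 normalized counts in WT, 2.83, 14.9 and 3.17 in Het and 67.9, 14.5 and 14.3 in KO. Its WT and Het ranges overlapped, and 2 of the Het animals were near the detection limit. Dnaaf5 was higher in Het, with 28.5, 84.9 and 105 in WT, 184, 148 and 139.7 in Het and 90.2, 110.3 and 105 in KO (log2 fold change 1.28, SE 0.50, limma unadjusted p = 0.0429). Without Het1, 0 of these 5 members had an unadjusted p under 0.05. As in KO, all 5 tektins were below 0, with a median of −0.55.

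The 11 members lower in KO all had a log2 fold change below 0 in Het against WT as well. They were picked against the same WT animals, which by itself favours values below 0, so this is not a separate result. In all 11, Het1 was the lowest of the Het animals, and in 10 of them Het2 was the highest. Over the 59 members measured at 10 normalized counts or more in at least 3 of the 9 animals, the number lying closer to KO than to WT, by group means, was 42 in Het1, 41 in Het3 and 24 in Het2. The same counts were not taken over all genes, so they cannot be read as particular to the members. The summed level of the elongating spermatid markers was 185236 in Het1, 223464 in Het3 and 228033 in Het2, so Het3 lay near Het2 there. Prm1, the highest of these markers, had 82705 in Het1, 103420 in Het3 and 97133 in Het2. A link between the markers and the members in these animals was not tested.

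As a deviation from each gene's mean over the 9 animals (log2 scale), the median member stood at 0.13, 0.10 and 0.16 in WT animals 1, 2 and 3. It stood at −0.22, 0.17 and 0.01 in the Het animals and at 0.00, −0.29 and 0.01 in the KO animals. The lowest values were those of Het1 and KO2. With total reads as the scaling the medians were −0.031, −0.027 and 0.087 in WT, −0.13, 0.13 and 0.056 in Het and 0.025, −0.095 and 0.047 in KO, so WT1 and WT2 turned below 0. The median over all genes tested moved down too, from −0.0079 to −0.16 in WT1 and from 0.077 to −0.047 in WT2. Het1 was the lowest of the 9 animals in 19 of 59 members (32.2%, beside 15.3% of all genes), KO2 in 14 (23.7%, beside 15.4%) and WT1 in 14 (23.7%, beside 28.6%). WT1 was also the highest animal in 22 members (37.3%, beside 25.5% of all genes), and the highest WT animal in 9 of the 11 members lower in KO. For the tektins the medians were 0.62, 0.35 and 0.10 in WT, −0.46, 0.13 and −0.02 in Het and −0.04, −0.51 and −0.02 in KO.

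Between KO and Het 0 of 58 members were called by limma, edgeR or DESeq2, beside 0.0558%, 0.0488% and 0.265% of the 14343 genes tested. At an unadjusted p under 0.05, 3 members (5.17%) were lower in KO, beside 1.82% of all genes, and 1 (1.72%) was higher, beside 1.74%. Groups did not overlap in 3 lower members (5.17%, beside 4.9%) and 2 higher ones (3.45%, beside 5.12%), and the median log2 fold change was −0.02. Cfap58, a protein of the sperm tail, had 294, 277 and 319.6 normalized counts in Het and 189.8, 188 and 231 in KO (log2 fold change −0.55, SE 0.16, limma unadjusted p = 0.0130). Its WT animals had 350.4, 232 and 272, also above the KO animals. The log2 fold change was −0.55 (SE 0.21) for Cfap77, −0.62 (SE 0.19) for Dnaaf5 and 0.39 (SE 0.15) for the inner arm heavy chain Dnah12.

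Axonemal genes outside the name rule were read from lists of radial spoke and central pair, ruler and docking, dynein assembly, intermediate and light chain, and microtubule inner protein genes. Over the 62 tested between KO and WT the median log2 fold change was −0.09, and at an unadjusted p under 0.05, 4 (6.45%) were lower in KO, beside 5.03% of all genes tested, and 0 were higher. There was no overlap between groups in 8 lower genes (12.9%, beside 10.5%). Of the 4, 3 were among the 17 radial spoke and central pair genes, while the ruler and docking list had 0 of 16 and the dynein assembly and the intermediate and light chain lists 0 of 8 each. Ak8, an adenylate kinase of the axoneme, had 877, 919 and 1053 normalized counts in WT, 389, 975 and 690.0 in Het and 629.6, 410.2 and 573 in KO (log2 fold change −0.84, SE 0.22). Spata17 (−0.91, SE 0.31) and Morn3 (−0.64, SE 0.22) were the others. These 3 did not overlap between WT and KO, and their adjusted p by limma was 0.610. Of the 9 cilium regulators tested, 0 had an unadjusted p under 0.05 in KO against WT, and Rfx2, known as a regulator of spermatid ciliary genes, had 687, 407 and 544 in WT, 502, 667 and 545 in Het and 257, 468 and 376 in KO.

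Some members were high in some animals and close to absent in others of the same genotype. Among the 59 members with a mean of at least 20 normalized counts, 14 (23.7%) had a highest animal over 8 times the lowest, beside 18.4% of the 10641 protein-coding genes with such a mean. Cfap161, a microtubule inner protein, had 500.2, 301 and 419 normalized counts in WT1, Het1 and KO1 and 1.79 to 5.59 in the other 6 animals. The animals with the high values were thus those with replicate number 1 in each genotype. Cfap126 had 811, 893, 871 and 669 in WT2, WT3, Het2 and KO1 and 9.67 to 53.9 in the other 5.

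Rsph6a had 6.19 in WT1 and 21.4 in KO3, with 207 to 549 in the other 7 animals. Cfap20, which lies at the inner junction of the doublets, had 4.95 in WT1 and 81.0 to 311 in the others. Dnaic2 had 24.8, 247 and 210.5 in WT, 18.9, 9.31 and 195 in Het and 188, 131 and 163 in KO. These values split animals of 1 genotype and therefore gave wide errors, as for Cfap126, for which KO against WT gave −2.0 on the log2 scale (SE 1.96). Cfap61 had 119 in WT1 and 90.7 in Het1 and 4.84 to 19.8 in the others, and Dnah9 was at 0 in WT1 and at 20.3 to 36.1 elsewhere. What lies behind the split was not tested.

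**Figure D5:**
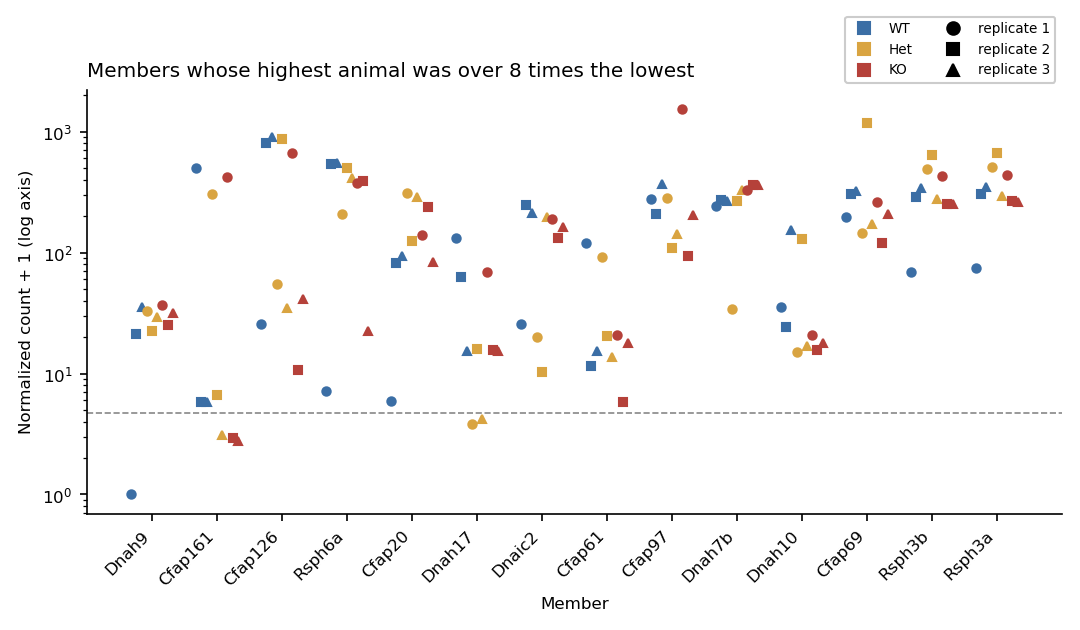
Normalized count + 1 (log axis) in each of the 9 animals for the 14 members whose highest animal was over 8 times the lowest. Colour is genotype, symbol is replicate number, and the dashed line marks the highest detection limit plus 1. High and low animals of 1 genotype lie far apart, for example 500.2 and 4.82 for Cfap161 in WT.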

How the data were processed

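The authors used Trim Galore 0.4.5 for trimming, HISAT2 2.1 for alignment to GRCm38 and StringTie 1.3.3 for quantification, and left out pseudogenes. The deposited table holds normalized signal, that is, reads per gene scaled by a DESeq2 size factor for every animal. Whole reads were recovered from it, since 100% of values above 0 were multiples of a single step per animal (tolerance 0.0001). Genotype and replicate number came from the sample titles. The members and gene lists were chosen with earlier results of these data known.

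Each pair of genotypes was compared with limma 3.58.1 (eBayes with a trend) in R 4.3.3 on log2(normalized count + 1), over all genes with at least 10 in at least 3 of the 6 animals, with Benjamini-Hochberg adjustment over all genes tested. This scale understates the change of low genes. The cutoffs, an adjusted p under 0.05 and a log2 fold change over 1.5, are those of the study's methods. The recovered reads were tested with edgeR 4.0.16 and DESeq2 1.42.0 as alternatives, and the other alternatives are given with their effect in the closing section. The fits were tested on simulated data. The replicate number was not used in the main fits, since it is not stated to mark litters. Not every same-numbered pair of animals had a correlation of deviations over 0.1 (range −0.14 to 0.19), which cannot exclude a shared litter or batch.

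Named were every Tekt, Dnaic, Drc, Dnali1 and Dnal1 gene, the 3 of highest mean in each other family, up to 6 per direction and comparison with the smallest unadjusted p under 0.05, up to 8 with a mean of at least 20 and a highest animal over 8 times the lowest, and up to 3 per pathway list. Cfap157, Cfap57, Rsph14, Dnah7c, Rsph3b, Cfap43, Rfx2 and the members near the detection limit were added after their values were seen. Promoters came from RefSeq (GRCm38.p6), positions and overlaps from GENCODE annotation of GRCm38, and Python 3.11.15 was used with pandas 2.3.3 and numpy 2.4.6, and matplotlib 3.10.9 for plots. Protein sequences were not used here, and 1 gene of the pathway lists is not reported here, though it is part of the list totals.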

Additional observations from a re-analysis of the deposited data

How the results depend on the processing

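The count of called members stayed at 0 in all 3 comparisons under each alternative run: edgeR, DESeq2, no filter, a mean of at least 50, pseudocounts of 0.5 and 5, TMM factors, reads per library, all 9 animals in 1 fit, the replicate block, rows of 1 symbol summed, each animal left out, no fold cutoff, and, added after seeing the data, WT1, Het1 and KO2 left out together. Some of these runs called few genes at all. In KO against WT the replicate block called 0 of 14223 genes tested and DESeq2 called 100. With WT1, Het1 and KO2 left out, 57 of 13508 genes were called. In KO against WT the 12 members at an unadjusted p under 0.05 became 7 with the replicate number as a block. Whether the numbers pair the animals is not known. The count was 6 to 12 when 1 animal was left out (6 without KO1 or KO2, 7 without KO3, 8 without WT2). With WT1, Het1 and KO2 left out there were 8, all lower and not all of them among the 12. The share of all genes at this threshold was not taken for these runs, so the counts have no background beside them.

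Between KO and WT the members' median log2 fold change was −0.011 with reads counted per library, where the median of all genes moved to 0.22, and −0.33 to −0.10 when 1 animal was left out. In Het against WT it was −0.011 with reads per library, where the median of all genes was 0.16. Leaving out 1 animal gave −0.26 to −0.018, the latter without Het1. In KO against Het it was −0.21 to 0.032 when 1 animal was left out, the lowest without Het1 and the highest without KO2. The mean of the WT animals' member medians went from 0.13 to 0.0097 with reads per library. The same mean over all genes tested went from 0.048 to −0.071. Under these alternatives no named fold change with an unadjusted p under 0.05 changed direction, and genes picked for a small p seldom do. The unadjusted p of these fold changes stayed under 0.05 in 267 alternative fits and was 0.05 or more in 110. Depth limited the statements on Rsph4a, Cfap73, Cfap99 and Dnah11, at or near 3 reads.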
